A study of Felis catus with 12 samples.

Results

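Muscle ubiquitin ligases and kelch proteins were followed in left ventricular tissue of 12 domestic cats (Felis catus). The set holds 10 genes, named by symbol with earlier results of these data known. They are the F-box genes FBXO32 and FBXO40 and the TRIM genes TRIM63, TRIM54 and TRIM55. The others are the kelch-like genes KLHL30, KLHL31 and KLHL38, the cullin CUL3 and the U-box gene STUB1. All 10 were found among the 30785 genes listed, and 9 of them passed a filter on reads (10 or more in 3 or more libraries out of the 10 whose cat is on the study's list), as did 8715 genes in all. KLHL30 did not and is given by its reads.

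RNA of the left ventricular free wall, taken after death from client-owned cats, was read directly on Oxford Nanopore flow cells, a method in which the RNA strand itself passes the pore. Each cat gave 1 library, and 4 libraries shared each of 3 flow cells. Cats 11, 23, 30 and 31 were run on flow cell A, cats 10, 15, 35 and 36 on flow cell B, and cats 22, 29, 37 and 38 on flow cell C. By cause of death, looked up by cat number in the cohort list of the study, 6 cats had congestive heart failure (HF; cats 11, 15, 30, 31, 35 and 37), 3 had arterial thromboembolism (ATE, a clot lodged in an artery; cats 10, 23 and 38) and 1 had no known cardiac death (cat 36). The libraries labelled cats 22 and 29 carry numbers that the list of sequenced cats lacks, so they entered no main comparison of outcomes or traits. They did enter some alternative settings and what was computed over all 12 libraries or by flow cell. No cat underwent a procedure for the study. The cats were patients of mixed breeds and ages, and their carcasses had been kept cold before sampling. Cat 10 of the ATE group was listed with heart failure as well, and cat 11 of the HF group with mechanical ileus.

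Ubiquitin ligases choose the proteins that are tagged with ubiquitin and then broken down by the proteasome. In striated muscle, FBXO32 (atrogin-1) and TRIM63 (MuRF1) are the classic atrophy ligases, which rise when muscle wastes, and TRIM54 (MuRF3) and TRIM55 (MuRF2) are the relatives of TRIM63 that sit at the sarcomere and on microtubules. Kelch-like proteins act as the substrate adaptors of ligases built on the scaffold CUL3, whereas STUB1 (CHIP) is a ligase that binds the chaperones HSP70 and HSP90 and tags their misfolded clients.

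Read numbers of each gene had been scaled by a library-wide size factor, so that levels of a gene can be compared between cats. Values of different members were not compared, and no gene lengths were used. Only reads of some members were set against each other, as ratios within a library. The libraries held 789257 to 2263110 reads on genes. Cardiomyocyte markers took 8.45% to 14.7% of the reads, led by MYL2 and ACTC1, and adipocyte markers at most 0.00195%. Of the skeletal muscle markers, ACTA1 and CKM, which heart muscle also expresses, were abundant and MYBPC2 had 637 reads over all libraries (0 to 350 in each), whereas TNNT3, TNNI2, TNNC2, MYLPF and ATP2A1 had 2 to 7 reads each. Cats 11 and 31 stood apart: their libraries correlated with each other at r = 0.923 across genes, the highest of 66 pairs. Their r with the other cats was 0.765 to 0.878, which overlapped the 0.827 to 0.900 among those other cats. In bulk tissue, fewer cells of a type and less RNA per cell cannot be told apart.

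FBXO32 encodes the substrate receptor of the SCF ligase atrogin-1. Its value was 39.6, 180, 253 and 120 in cats 11, 23, 30 and 31 of flow cell A, 192, 347, 421 and 160 in cats 10, 15, 35 and 36 of flow cell B, and 185, 461, 219 and 149 in cats 22, 29, 37 and 38 of flow cell C. Cats 11 and 31 were the lowest and cats 29 and 35 the highest, an 11.7-fold range from the lowest to the highest cat. The flow cells overlapped.

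FBXO40, the muscle F-box protein that targets the insulin receptor substrate IRS1, ran from 6.38 to 136, a 21.4-fold range. Cats 11 and 31 had 8.20 and 6.38 (17 and 8 reads), with exact 95% counting intervals of 4.78 to 13.1 and 2.75 to 12.6. The other cats of flow cell A, 23 and 30, had 77.9 and 71.5. On flow cell B the values were 83.4, 93.9, 71.7 and 52.5, and on flow cell C 136, 49.9, 88.7 and 126, in the order of cats given above. No other cat came below 49.9 (cat 29), and its interval of 36.4 to 66.7 lay clear of both.

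TRIM63 encodes MuRF1, a RING ligase that tags thick filament proteins and troponin I. Its value was 34.8, 235, 235 and 77.4 on flow cell A, 264, 370, 226 and 228 on flow cell B, and 317, 643, 205 and 364 on flow cell C. Cats 11 and 31 were again the lowest. Cat 29 was the highest, 18.5 times the lowest cat.

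TRIM54 encodes MuRF3, which binds microtubules and the sarcomere. It varied less, from 82.0 in cat 11 to 448 in cat 36. The cats of flow cell A had 82.0, 184, 209 and 163, those of flow cell B 282, 358, 257 and 448, and those of flow cell C 186, 267, 172 and 171. All cats of flow cell B exceeded those of flow cell A, while flow cell C overlapped both.

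TRIM55, the gene of MuRF2, ran the other way from its relatives. It was highest in cats 11 and 31, at 381 and 241, with 163 and 117 in cats 23 and 30. The values were 85.7, 66.7, 83.5 and 119 on flow cell B and 117, 96.4, 100 and 101 on flow cell C. Flow cell A exceeded the other flow cells except for cat 30, which lay just below cats 22 and 36.

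**Figure D1:**
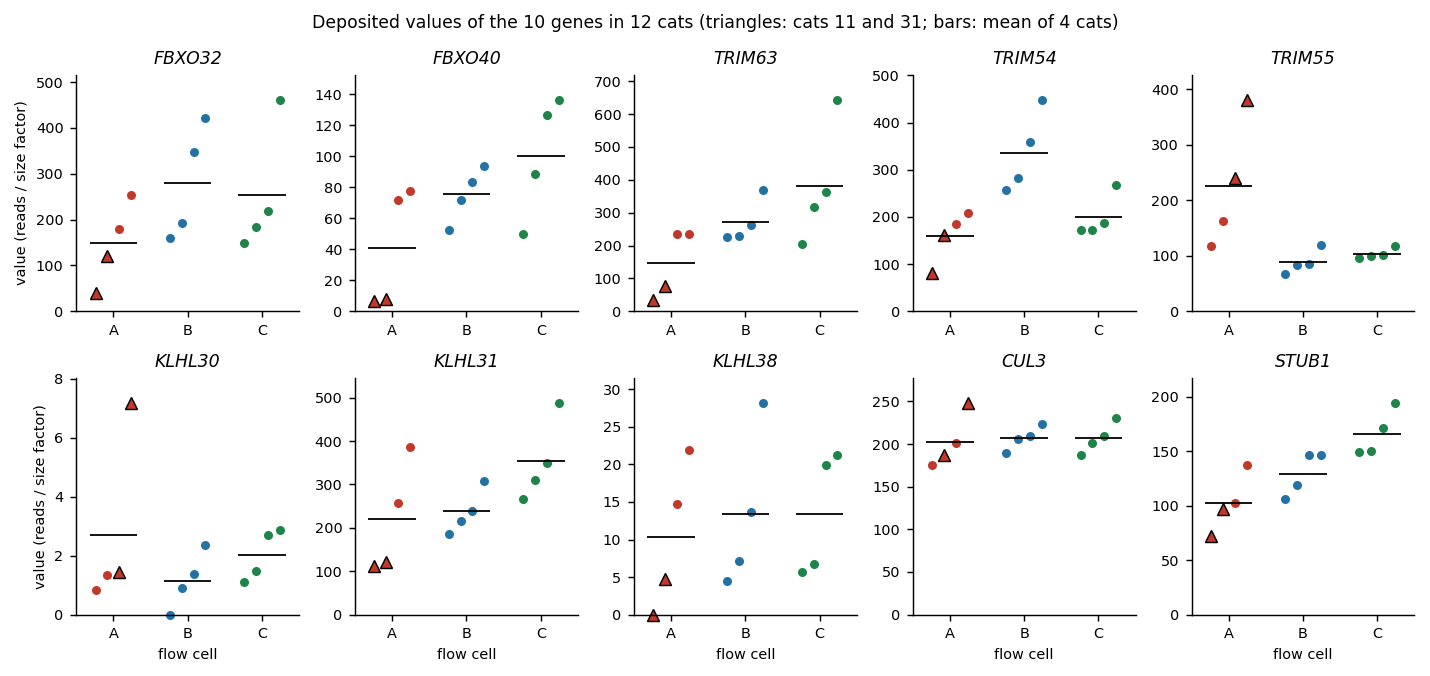
Deposited value (reads divided by the size factor, linear axes from 0) of each of the 10 genes by flow cell, with 1 point per cat and a bar at the mean of 4 cats. Triangles mark cats 11 and 31, which lie at 8.20 and 6.38 for FBXO40 where no other cat is below 49.9, and at 381 and 241 for TRIM55 where no other cat is above 163.

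Because TRIM55 and TRIM63 were read in the same libraries, their reads can be set against each other without any size factor. As TRIM55 was highest and TRIM63 lowest in cats 11 and 31, high ratios there restate those values. Cat 11 had 789 TRIM55 and 72 TRIM63 reads, a ratio of 11.0 (exact 95% counting interval 8.60 to 14.2), and cat 31 had 302 and 97 reads, a ratio of 3.11 (2.47 to 3.96). In the other 10 libraries the ratio lay between 0.150 in cat 29 and 0.691 in cat 23, so TRIM63 had more reads than TRIM55 in all of those. The intervals cover counting error only. The ratio of TRIM55 to TRIM54 reads was likewise highest in cats 11 (4.64) and 31 (1.48) and between 0.186 and 0.883 in the others. The ratio of FBXO32 to TRIM63 reads did not set these cats apart: cats 11 (1.14) and 31 (1.55) lay within the range of the others, 0.408 in cat 38 to 1.86 in cat 35.

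**Figure D2:**
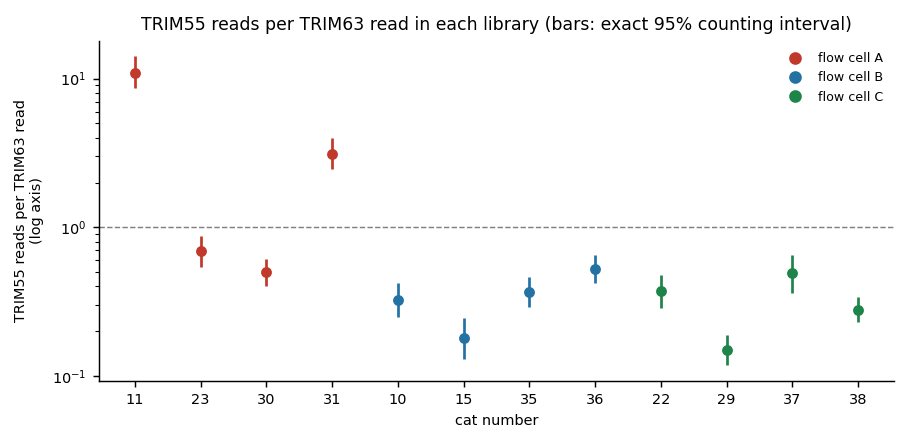
TRIM55 reads per TRIM63 read (log axis) in each of the 12 libraries, ordered by flow cell, with exact 95% counting intervals as bars. Cats 11 and 31 sit at 11.0 and 3.11, above 1, and the other 10 libraries between 0.150 and 0.691.

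KLHL31 encodes a kelch protein of striated muscle. It was read at 112 and 122 in cats 11 and 31, and at 187 or more elsewhere. Cats 23 and 30 had 258 and 386, the cats of flow cell B 216, 309, 187 and 239, and those of flow cell C 311, 488, 266 and 350. The range was 4.36-fold, with cats 11 and 31 at the bottom and cat 29 at the top.

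KLHL38, a muscle kelch gene that neighbours FBXO32 on chromosome F2 of the RefSeq gene table, was sparse, with 148 reads in all. It was not detected in cat 11, the deepest library, which allows a value of up to 1.45 (3 reads). The other values on flow cell A were 14.8, 21.9 and 4.79 in cats 23, 30 and 31. They were 28.2, 13.6, 7.09 and 4.45 on flow cell B and 6.75, 20.0, 5.72 and 21.3 on flow cell C. The value of cat 10 was 19.5 times the limit of cat 11, and its own counting interval was 18.2 to 41.6. The counting interval of cat 31 (1.76 to 10.4) lay clear of those of cats 10, 29, 30 and 38 only.

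KLHL30, a kelch-like gene whose substrates are little known, gave only 26 reads in 12 libraries. It had 9 reads in cat 31, 3 in each of cats 11 and 35, 2 in each of cats 22, 37 and 38, 1 in each of cats 23, 30, 15, 36 and 29, and 0 in cat 10. The 0 allows a value of up to 3.38. The value of cat 31 was 7.18, with an exact counting interval of 3.28 to 13.6 that overlapped that of every other library. The next highest value was 2.86 in cat 37. It was left out of the comparisons of groups and traits that follow, which cover the genes that passed the filter on reads.

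CUL3, the scaffold on which kelch adaptors assemble, was the steadiest member. Its value stayed between 176 in cat 23 and 248 in cat 31, a 1.41-fold range with a CV of 9.96% over the 12 cats. Counting error alone would give a CV of 7.03%. Only 6 of the 8715 genes tested had a lower CV, and the median CV was 40.0%. Flow cell A had 187, 176, 201 and 248, flow cell B 189, 206, 224 and 209, and flow cell C 188, 202, 230 and 210, so the flow cells overlapped throughout.

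STUB1 encodes the chaperone-bound ligase CHIP. It ran 2.70-fold, from 71.9 in cat 11 to 194 in cat 29, with a CV of 26.0%. The cats of flow cell A had 71.9, 137, 103 and 96.5, those of flow cell B 147, 118, 106 and 146, and those of flow cell C 171, 194, 149 and 150. All cats of flow cell C exceeded those of flow cell A, and flow cell B overlapped both.

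Across the set, cats 11 and 31 were both below all other cats for FBXO32, FBXO40, TRIM63, TRIM54, KLHL31 and STUB1, which is 6 of the 9 genes tested, and both above all others for TRIM55. Of all genes tested, 7.76% had both cats below the rest and 8.78% had both above. For CUL3 and KLHL38 these cats overlapped the others. This is a description, since the pair of cats was singled out after the data were seen, from all genes, and both are HF cats of flow cell A. Among the other cats, cat 29 was the highest for FBXO32, TRIM63, KLHL31 and STUB1 but the lowest of the other 10 for FBXO40, and cat 36 was highest for TRIM54 only.

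**Figure D3:**
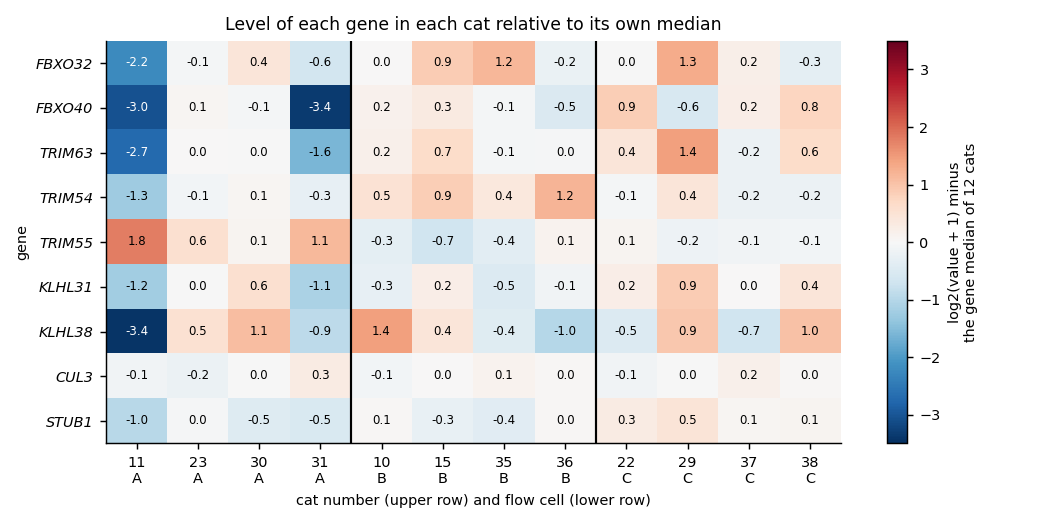
Heat map of log2(value + 1) minus the gene's median over 12 cats, for the 9 genes tested (rows) and the 12 cats by flow cell (columns). Cats 11 and 31 are at -3.04 and -3.36 for FBXO40, at -2.72 and -1.59 for TRIM63 and at 1.80 and 1.14 for TRIM55, while CUL3 stays between -0.21 and 0.28 in all cats.

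The first comparison asked whether levels differed with the flow cell, which has to be known before cats are compared. With limma on log2(value + 1), TRIM55 was higher on flow cell A by 1.10 (95% interval 0.54 to 1.66, adjusted p = 0.0250, n = 4 against 8), with a mean value of 225 ± 116 (SD) against 96.3 ± 17.6. It was the only member past the threshold, 1 of 9 higher and 0 of 9 lower. Among all genes tested, 1.62% were called higher and 3.50% lower. Without cats 11 and 31, TRIM55 differed by 0.53 (-0.02 to 1.09, limma adjusted p = 0.527), and it lost the threshold when cat 11 alone (adjusted p = 0.138) or cat 31 alone (adjusted p = 0.0896) was left out, and with unscaled reads (adjusted p = 0.0728).

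TRIM63 was lower on flow cell A by 1.46 on the log2 scale (95% interval of the difference -2.36 to -0.56), with a limma adjusted p = 0.0569 that missed the threshold. FBXO40 differed by -1.75 (-2.90 to -0.60, limma adjusted p = 0.0711). Both passed when cat 23 or cat 30 was left out, at limma adjusted p = 0.0247 and 0.0248 for TRIM63 and 0.0208 and 0.0246 for FBXO40. TRIM63 also passed among genes with 10 reads or more in every library (limma adjusted p = 0.0340). Neither was near the threshold without cats 11 and 31, where the differences were -0.38 and -0.15.

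The other members stayed short of the threshold in each fit made. The difference of flow cell A from B and C was -0.998 for FBXO32 (-1.87 to -0.12), -0.75 for TRIM54 (-1.36 to -0.14), -0.54 for STUB1 (-0.99 to -0.10), -0.56 for KLHL31 (-1.22 to 0.10) and -0.84 for KLHL38 (-2.30 to 0.62). CUL3 differed by -0.04 with an interval of -0.38 to 0.30, the narrowest of the set. At an unadjusted p under 0.05, 5 of 9 members were lower (12.0% of all genes) and 1 was higher (9.42% of all genes). Without cats 11 and 31 no member passed even that (9.87% of all genes). No member had values on flow cell A that failed to overlap those of the other flow cells, which 1.72% of genes did upwards and 2.51% downwards. TMM scaling kept these signs except for CUL3 (0.00), and unscaled reads, which shift the median of all genes to 0.41, put CUL3 at 0.36 and left the other signs as they were.

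**Figure D4:**
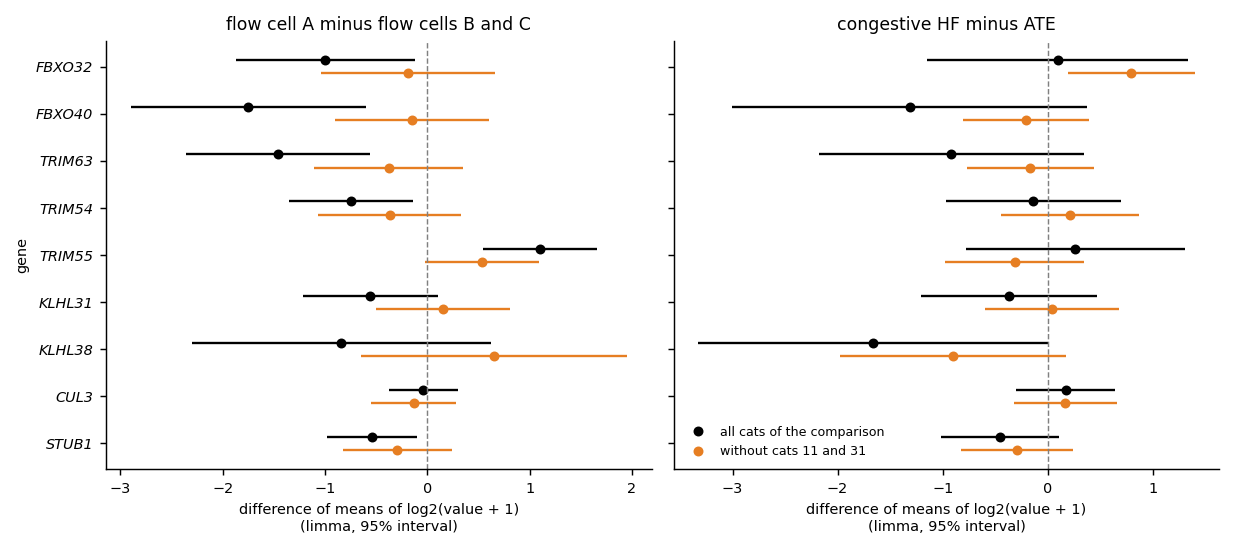
Difference of mean log2(value + 1) with limma's 95% interval for the 9 genes tested, between flow cell A and flow cells B and C (left) and between congestive HF and ATE (right), for all cats of the comparison (black) and without cats 11 and 31 (orange). In the left panel TRIM55 moves from 1.10 to 0.53 and TRIM63 from -1.46 to -0.38 when those cats are left out, and CUL3 stays near 0 in both.

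The second comparison set the 6 cats with congestive HF against the 3 with ATE. In limma no member differed past the threshold, nor did any of the 8715 genes (0.00%), of which 384 (4.41%) had an unadjusted p under 0.05 and none of those was a member. edgeR called 0 genes and DESeq2 called 1, which is no member. No member had HF values that failed to overlap those of ATE, as 2.18% of genes did. Cats 11 and 31, both in the HF group, were at the extreme of most members, and the HF range includes them.

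KLHL38 came nearest, with 0 to 21.9 in HF (median 6.41) against 14.8 to 28.2 in ATE (median 21.3). Its difference was -1.66 (95% interval -3.33 to 0.00, limma adjusted p = 0.960) on the log2 scale and -0.90 without cats 11 and 31. FBXO40 had 6.38 to 93.9 in HF (median 71.6) and 77.9 to 126 in ATE (median 83.4), a difference of -1.31 (-3.00 to 0.38) that shrank to -0.21 without those cats.

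TRIM63 had 34.8 to 370 in HF (median 215) and 235 to 364 in ATE (median 264), and STUB1 71.9 to 149 (median 105) and 137 to 150 (median 147). The log2 differences were -0.92 (-2.18 to 0.35) and -0.46 (-1.02 to 0.11). FBXO32 spanned 39.6 to 421 in HF (median 236) and 149 to 192 in ATE (median 180), so ATE lay inside the HF range. Its difference was 0.09 (-1.15 to 1.34) with all cats and 0.80 (0.19 to 1.40) without cats 11 and 31. In limma the latter had an unadjusted p = 0.0137 and an adjusted p = 0.998. It was the only member of 9 past 0.05 unadjusted in that fit, against 3.53% of all genes.

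The remaining members had intervals that spanned 0 as well. Differences were -0.14 (-0.97 to 0.69) for TRIM54, 0.26 (-0.78 to 1.31) for TRIM55, -0.37 (-1.20 to 0.46) for KLHL31 and 0.17 (-0.30 to 0.64) for CUL3. With flow cell as a covariate the signs of all 9 were kept. A change of 1 on the log2 scale in at least one direction lay inside the interval of every member except TRIM54 and CUL3, so changes of that size in the other members could not be resolved.

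For age, the values of the cohort list were available for 9 cats. Spearman's rho was 0.82 for FBXO32, at p = 0.0108 by exact permutation of age over cats and 0.816 after adjustment over all genes. Ordered from the youngest cat to the oldest (cats 36, 31, 11, 38, 10, 37, 23, 15 and 30), FBXO32 read 160, 120, 39.6, 149, 192, 219, 180, 347 and 253. The 4 lowest values belonged to the 4 youngest cats. Pearson's r on log2(value + 1) was 0.65 (exact p = 0.0444), and 0.48 or 0.74 without the 2 cats farthest from the median age, cats 30 and 15 or cats 30 and 36. With flow cell means subtracted, r came to 0.82 (exact p = 0.0313 over 288 orders within flow cells). For the other members tested, that r ran from -0.90 for TRIM55 (exact p = 0.0243) to 0.82 for FBXO40 (exact p = 0.0729). Without cats 11 and 31 the rho of FBXO32 was 0.82 (n = 7, exact p = 0.0341, adjusted p = 0.982). Each of 3 traits was tested over all 8715 genes, and no gene passed after adjustment.

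KLHL31 had a rho of 0.68 with age (exact p = 0.0503, adjusted p = 0.897), KLHL38 0.62 (exact p = 0.0857), TRIM63 0.50, FBXO40 0.48 and TRIM55 -0.50. By rho over all 9 cats, FBXO32 was the only member of 9 with an unadjusted p under 0.05, against 4.76% of all genes. The plot of values against age rank shows that cats 11 and 31 ranked 3 and 2 from the youngest. Without them rho fell to 0.54 for KLHL31, 0.29 for KLHL38, 0.14 for TRIM63 and 0.00 for FBXO40, and that of TRIM55 moved to -0.14. STUB1, at 0.02 with all cats, stood at -0.75 without them (n = 7, exact p = 0.0663).

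With flow cell as a covariate, limma slopes on age had an unadjusted p under 0.05 for 6 of 9 members, against 11.6% of all genes, and none of the adjusted p-values was below 0.188. Per year of age, log2(value + 1) changed by 0.17 for FBXO40 (95% interval 0.09 to 0.26), 0.17 for KLHL38 (0.02 to 0.31), 0.12 for FBXO32 (0.05 to 0.18), 0.11 for TRIM63 (0.04 to 0.19), 0.08 for KLHL31 (0.03 to 0.13) and -0.08 for TRIM55 (-0.12 to -0.04). On flow cell A, cats 31 and 11 ranked 2 and 3 by age and cats 23 and 30 ranked 7 and 9, so age and whatever set cats 11 and 31 apart cannot be told apart there.

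**Figure D5:**
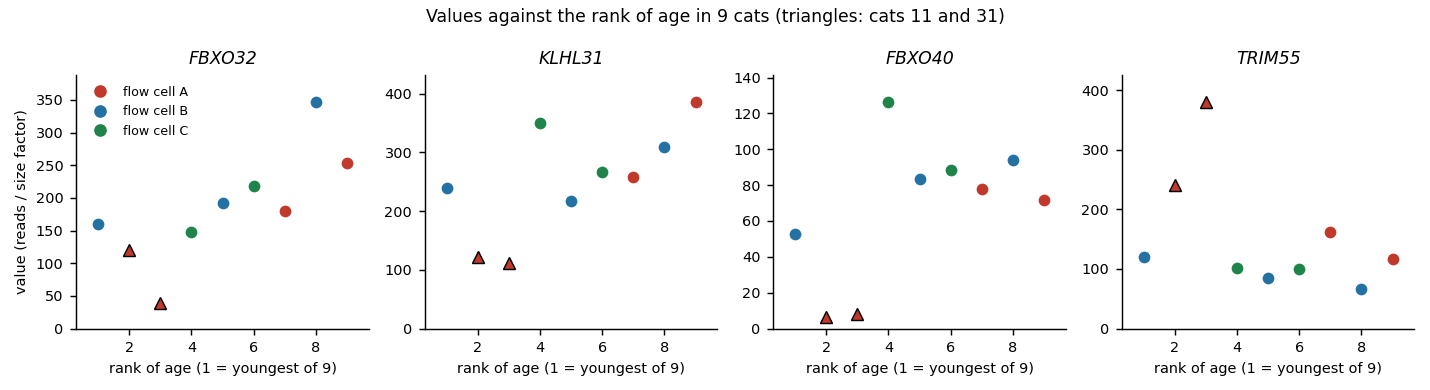
Deposited value (linear axes from 0) of FBXO32, KLHL31, FBXO40 and TRIM55 against the rank of age in 9 cats, coloured by flow cell, with triangles for cats 11 and 31 at ranks 3 and 2. FBXO32 rises with rank also among the other 7 cats (rho 0.82), whereas FBXO40 does not (rho 0.00). The libraries labelled cats 22 and 29 are not shown.

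For myocardial fibrosis, the share of collagen-stained area within the myocardium, 8 cats entered. CUL3 had a rho of -0.74 (exact p = 0.0458, adjusted p = 1), the only member of 9 with an unadjusted p under 0.05, against 2.83% of all genes. Its r was -0.65 (exact p = 0.0858), -0.86 without cats 23 and 15, which lie farthest from the median, and -0.71 after centring on flow cells (exact p = 0.132, n = 7). Total fibrosis in place of myocardial fibrosis gave a rho of -0.62 (exact p = 0.115). The whole range of this gene was 1.41-fold, as given above. The other members had rho between -0.29 for FBXO32 and 0.31 for TRIM63. With unscaled reads, rho turned from 0.31 to -0.74 for TRIM63 and from 0.12 to -0.76 for FBXO40. By exact permutation the adjusted p was 0.728 for both. The median rho of all genes moved from 0 to -0.36 in that setting.

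For the adipocyte percentage, with 10 cats, no member had an unadjusted p under 0.05 by permutation (100000 random orders), as 3.06% of genes did. TRIM54 had the largest rho, 0.44 (permutation p = 0.203), and 0.71 without cats 11 and 31 (n = 8, exact p = 0.0576). The others lay between -0.19 for FBXO32 and 0.30 for TRIM63.

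Over 12 libraries, FBXO32 and TRIM63, the atrophy ligases that are often read together, correlated with r = 0.83 on log2(value + 1) (p = 0.0015, 100000 permutations) but with a rho of only 0.48 (permutation p = 0.1161). It was the only pair tested. Leaving out cats 11 and 29, whose FBXO32 lay farthest from the median, gave an r of 0.41, and leaving out cats 11 and 31 gave 0.42 (permutation p = 0.225). Of single cats, leaving out cat 11 lowered r the most, to 0.60, and without any other cat r was 0.79 or more. With flow cell means subtracted r was 0.80 (permutation p = 0.0120), and with 4 libraries each no flow cell gave a value of its own.

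As a description of the set, 7 members that had been picked after their values were seen (FBXO32, FBXO40, TRIM63, TRIM54, KLHL31, KLHL38 and STUB1) were positively correlated in all 21 of their pairs, with rho from 0.15 to 0.76 and a median of 0.48. The highest was KLHL31 with TRIM63. TRIM55 was negatively correlated with all 7, from -0.35 to -0.82, the latter with FBXO32. All these points share libraries, size factors and flow cells. Without cats 11 and 31, 13 of the 21 pairs were positive with a median of 0.10, and TRIM55 was negative with 5 of the 7. KLHL31 with TRIM63 (0.59) and TRIM55 with FBXO32 (-0.68) kept the largest values of their kind. CUL3 had rho between -0.27 and 0.10 with the other 8 members. FBXO32 and its neighbour KLHL38 had a rho of 0.47, and 0.10 without those cats.

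Among all genes tested, those whose values followed each member most closely over the 12 libraries were listed by Spearman's rho. CUL3 was followed by CUL1 (0.86), the scaffold of the SCF ligases, and GKAP1 (0.85). FBXO32 was followed by RGMB (0.94) and SLC22A3 (0.92), FBXO40 by NFU1 (0.94) and CAVIN2 (0.93), and TRIM63 by RAB24 (0.97) and PLPP3 (0.94). TRIM54 went with KLF9 (0.92) and LOC109497449 (0.92), TRIM55 with UGCG and ADAMTS1 (both 0.94), and KLHL31 with MPC2 (0.92) and CHGB (0.90). KLHL38 went with LOC102899645 (0.93) and PLSCR4 (0.91), and STUB1 with ENDOG (0.96) and COQ7 (0.94). These are the top 2 of 8715 genes for each member, so high values are the rule.

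The machinery around the ligases was described by lists. Of all genes tested, 3.50% were called lower on flow cell A and 1.62% higher. None of 30 E2 conjugating enzymes was called between flow cell A and the others (median difference 0.11, all genes 0.03). Of 32 genes of the cullin-RING core and neddylation, 2 were lower on flow cell A. COPS9, a subunit of the COP9 signalosome that takes NEDD8 off cullins, differed by -1.17 (limma adjusted p = 0.0170) and DCUN1D2, of a family that helps to load NEDD8, by -0.80 (95% interval -1.27 to -0.33). The median of that list was 0.01.

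None of 29 other BTB-kelch and BTB adaptors (median 0.05) and none of 29 other muscle ubiquitin ligases (median -0.26) was called in either direction. Of 38 atrophy signalling and transcription factor genes, 1 was called, a share no higher than the 3.50% of all genes called lower. It was KLF15, a glucocorticoid-induced factor that can switch on FBXO32 and TRIM63 in muscle, and was lower by 1.62 on the log2 scale (95% interval of the difference -2.36 to -0.88, limma adjusted p = 0.0161). It read 4.83, 16.1, 23.6 and 11.2 in cats 11, 23, 30 and 31 and 22.3 to 58.7 elsewhere, so cats 11 and 31 were again the lowest. The median of that list was -0.06. Among 23 chaperone partners of STUB1, HSPB1 (1.15, limma adjusted p = 0.0443) and HSP90AA1 (0.81, limma adjusted p = 0.0308) were higher, with a list median of 0.14. HSP90AA1, the cytosolic HSP90 that STUB1 binds, read 475 to 535 on flow cell A and 161 to 381 elsewhere. The list as a whole took 1.16% and 1.25% of reads in cats 11 and 31, 0.860% and 0.875% in cats 23 and 30, and 0.422% to 0.741% in the others.

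Of 34 sarcomere substrates and partners of the ligases, 9 were lower on flow cell A and 3 higher, with a median of -0.40. The shares over all genes were 3.50% lower and 1.62% higher. Those lower included MYBPC3 (-1.82, limma adjusted p = 0.0023) and TCAP (-1.55, limma adjusted p = 0.0023), a thick filament and a Z-disc protein, and TNNT2 (-1.05, limma adjusted p = 0.0087). VIM (1.08), ANKRD2 (2.83) and CRYAB (1.26) were higher. TNNI3, cardiac troponin I and a known target of TRIM63, differed by -1.64 (limma adjusted p = 0.0145). ANKRD2, a titin-bound stress protein, read 3475 and 3682 in cats 11 and 31, 1046 and 666 in cats 23 and 30, and 55.2 to 1713 elsewhere. Without cats 11 and 31 no gene of any list was called, as no gene of all 8715 was in that fit of 2 against 8 cats. The differences of the named genes were then still -1.17 for COPS9, 0.77 for HSP90AA1, -0.96 for TNNT2, -1.30 for MYBPC3 and -1.19 for TCAP, but -0.97 for KLF15, 0.62 for HSPB1 and 0.62 for CRYAB. For congestive HF against ATE, age, fibrosis and adipocyte percentage no gene of any list was called either.

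Markers of cell types moved with the same flow cell, on which 3.50% of all genes were called lower and 1.62% higher. Of 10 cardiomyocyte markers, 5 were lower on flow cell A and none higher (median -0.89), of which MYBPC3, TNNT2 and TNNI3 are named above, and their summed share was 9.93% to 14.1% on flow cell A against 8.45% to 14.7% elsewhere. Of 9 fibroblast markers, COL1A1 (2.63, and 2.27 without cats 11 and 31) and COL3A1 (1.84, and 1.75 without them) were higher and none lower, with summed shares of 0.0998% to 0.328% against 0.0276% to 0.163%. Among 5 smooth muscle and pericyte markers tested, CNN1 (5.90) and TAGLN (2.63) were higher and no other was called. The list median was 0.43 and the smallest difference 0.03. Reads of CNN1 and TAGLN enter the summed share as well. The share of that list was 0.107% and 0.105% in cats 11 and 31, 0.0433% to 0.0451% in cats 30 and 23, and 0.00916% to 0.0298% in the others. None of 8 endothelial, 9 macrophage and leukocyte, 3 skeletal muscle and 1 adipocyte markers tested was called, no red cell marker passed the filter on reads, and of 8 housekeeping genes ACTB was higher (1.25). The part of these markers in the levels of the ligases was not tested.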

How the data were processed

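The deposited values are a signal that the authors made by counting reads per gene and dividing them by a size factor of the library. Per the study's methods, reads of the direct RNA kit were base called with Guppy, filtered on quality, mapped with Minimap2 to felCat9 and counted with FeatureCounts. Every value was a whole multiple of what 1 read is worth, within a tolerance of 1e-06, so reads were recovered. Libraries held 789257 to 2263110 reads on genes. Ages, fibrosis, adipocyte percentages and outcomes were joined by cat number from the cohort list of the study.

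The 8715 of 30785 genes that reached 10 reads in 3 or more of 10 listed libraries were tested. Groups were compared by limma 3.58.1 with an intensity trend on log2(value + 1) in R 4.3.3, a scale that understates changes of low genes. Traits were tested by Spearman's rho, with exact permutation over cats or, for the adipocyte percentage and the pair FBXO32 and TRIM63, 100000 permutations (scipy 1.17.1). All tests were two-sided, with Benjamini-Hochberg adjustment over all genes tested and a threshold of 0.05. Each cat gave 1 library. Alternatives were edgeR 4.0.16 and DESeq2 1.42.0 on the recovered reads, TMM scaling, unscaled reads, other pseudocounts and filters, flow cell as a covariate, limma slopes, and leaving out each cat. Other alternatives entered the libraries labelled cats 22 and 29 as those cats or, for traits, as cats 16 and 25 in either order. For outcomes only cat 22 was entered, as ATE. The scripts were tested on simulated data. Exact counting intervals (95%) and limits of 0 reads (3 reads) cover counting error only.

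The members and gene lists were chosen with earlier results of these data known. The text names all members, at most 3 genes per direction in each list past the threshold, the 2 genes most like each member, and the 2 highest cardiomyocyte markers. Leaving out cats 11 and 31 together was added after seeing the data. Neighbouring genes come from the RefSeq gene table of assembly F.catus_Fca126_mat1.0, in which all 10 members were found. Protein and promoter sequences were not used here. One gene list is not reported here.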

Additional observations from a re-analysis of the deposited data

Results flagged for a closer look

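Among 40 combinations of a member with a flow cell or outcome group, which share cats, 3 had a cat far from the others of its group. The rule is set for about 1 in 20 by chance, which need not hold for a gene with as few reads as KLHL30. KLHL30 read 7.18 in cat 31 (9 reads), against 0.842 to 1.45 in the other cats of flow cell A and 0.842 to 2.86 in the other cats with congestive HF. The same value was thus flagged in both groups. TRIM54 read 267 in cat 29, against 171 to 186 in the other cats of flow cell C.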

How the results depend on the processing

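Of 909 values of members under other settings, 805 kept their sign, 4 lost the threshold and 5 gained it. The 446 genes called between flow cells became 864 with DESeq2, 80 with unscaled reads and 0 without cats 11 and 31, and 51 to 501 when single cats were left out, with 51 without cat 11, 129 without cat 31 and 295 without cat 15. For congestive HF against ATE, 1 gene was called with DESeq2 and 1 with all genes that had a read, and 0 to 1 when single cats were left out. For the adipocyte percentage that range was also 0 to 1. With the libraries labelled cats 22 and 29 entered as those cats, or as cats 16 and 25 in either order, 0 genes were called for each trait. With cat 22 entered as ATE, 0 were called between congestive HF and ATE. The r of FBXO32 with TRIM63 was 0.42 without cats 11 and 31 and 0.60 to 0.89 without single cats, and rho was 0.87 with unscaled reads and 0.33 to 0.63 without single cats. With unscaled reads, the rho with fibrosis turned to -0.76 for FBXO40 and -0.74 for TRIM63, where the median of all genes was -0.36. The cause was not tested. No paired analysis was possible because the groups share no cat numbers. Depth limits KLHL30 and KLHL38 most, with 26 and 148 reads in all.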
